A study of Nothobranchius furzeri with 20 samples.

Results

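The genes falling from 7 to 10 weeks are 150 of the 26739 gene IDs measured in skin of the turquoise killifish (Nothobranchius furzeri), a small African fish that completes its adult life within months. Members were chosen on CPM, the raw count of a gene scaled to a library of 1000000 counts. An ID had to average 1 to 2000 CPM over the 20 libraries, its lowest 7 weeks library had to lie above its highest 10 weeks library, and at least 1 library of 5 weeks had to reach the lowest 7 weeks value. The 150 with the largest gap between the highest 10 weeks and the lowest 7 weeks library were kept, on log2(CPM + 0.5). All fish were males of GRZ, an inbred, short-lived laboratory strain. The 4 groups were 5, 7, 10 and 14 weeks of age, with 5 RNA-seq libraries each and no treatment named in the labels. Library totals ran from 21581757 to 35137022 counts. Whether libraries of one age stem from different fish is not stated in the labels. The p-values thus refer to the spread among these libraries, which may be technical. The files give gene IDs without names, 0 of the IDs matched the RefSeq gene table, and members are therefore described by level, length and age profile, without function.

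Fish skin is a living epidermis of keratinocytes and mucous cells over a dermis of fibroblasts, scales, vessels and pigment cells. Male turquoise killifish grow fast, become sexually mature within weeks of hatching and take on bright body and fin colours as they do. Whole skin mixes all of these cells, so fewer cells of a type and less RNA per cell cannot be told apart in bulk libraries. Because no ID carries a name, the cell type markers of skin could not be read and the labelled tissue was not checked against them.

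Some libraries stood apart from the rest. Over the 19042 tested IDs outside the falling set, the first principal component held 43.3% of the variance of log2 CPM. Replicates 3 and 4 of 14 weeks scored 151 and 189 on it, replicate 4 of 10 weeks scored 118 and replicate 3 of 7 weeks scored 85.4, and the remaining libraries lay between −76.2 and 45.3. The next component held 16.9%. On it replicates 4 and 5 of 5 weeks scored 59.1 and 47.6, within or just above the 10 weeks libraries at 20.9 to 58.8. Replicates 1, 2 and 3 of 5 weeks scored −55.7, −63.3 and −30.4, near the 7 weeks libraries at −62.2 to −34.7. Genes outside the falling set thus divided the 5 weeks libraries too. They include other IDs whose 7 and 10 weeks libraries do not overlap, so this is not a separate check on the members. The labels hold nothing else by which the age of a library could be checked, so every 5 weeks value here, and every comparison with 5 weeks, rests on that label. The trimmed mean of M-values (TMM), a scaling by the bulk of the genes, also set libraries apart from plain CPM. Plain log2 CPM was lower than TMM-scaled log2 CPM by 0.43 in 5 weeks replicate 4, by 0.34 in 10 weeks replicate 1 and by 0.37 in 10 weeks replicate 2. It was higher by 0.31 to 0.39 in the 4 libraries apart on the first component. The principal components above were computed on TMM-scaled log2 CPM. Other values are in plain CPM unless TMM scaling is named, and the per-library counts and positions of the members are given under both.

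Of the 17203 IDs in the range of mean CPM, 2162 had every 10 weeks library below every 7 weeks library, and 1905 of these met the condition at 5 weeks. The gap ran from 2.47 for the first member to 0.809 for the last on the log2 scale, with a median of 0.978. The last member reached at most 3.93 CPM at 10 weeks, against at least 7.27 CPM at 7 weeks, and the first ID left out reached at most 76.9 CPM at 10 weeks, against at least 135 CPM at 7 weeks, with a gap of 0.808. The limit thus fell inside a continuous range. The gap was mostly set by 2 libraries. In 109 of the 150 members the highest 10 weeks library was replicate 4, and in 122 the lowest 7 weeks library was replicate 5. Applying the rule without 10 weeks replicate 4 kept 77 of the 150 IDs, and without 7 weeks replicate 5 it kept 84. With TMM-scaled CPM it kept 105.

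The members were genes of moderate level. Their mean over the 20 libraries had a median of 15.6 CPM and ran from 1.13 to 399.6 CPM, with 44 members under 10 CPM and 12 at 100 CPM or more. No member had a count of 0 in any library, and the lowest count at 7 weeks was 32. Gene lengths implied by the authors' RPKM table (CPM per kilobase) had a median of 2932 bases in the falling set and 2673 bases over all tested IDs. The quartiles were 1372 and 4537 bases in the falling set, against 1338 and 4673 bases over all tested IDs. As CPM per kilobase, the level of the members had a median of 6.84, against 4.55 over all tested IDs, and a range of 0.429 to 149. A minimum of CPM was part of the rule, which the tested IDs did not have to meet.

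Summed over the 150 members, the libraries of 5 weeks held 7876, 9166, 5722, 2509.9 and 3190.1 CPM in replicates 1 to 5. Those of 7 weeks held 8533, 11968, 8508, 11194 and 5746 CPM. At 10 weeks the sums were 1735, 1334, 1882, 2314 and 1869.7 CPM, and at 14 weeks 1626, 2614, 5049, 4504 and 2198 CPM. The sums at 10 and 7 weeks could not overlap under the rule. At 5 weeks replicates 1 and 2 lay among the 7 weeks libraries and replicate 3 just below the lowest of them, while replicates 4 and 5 lay above the 10 weeks range and below every 7 weeks library. At 14 weeks replicates 1, 2 and 5 lay near the 10 weeks libraries, and replicates 3 and 4 lay between them and the lowest 7 weeks library. With TMM scaling the sums were 3383 and 3188 CPM in replicates 4 and 5 of 5 weeks, and 4031 and 3430 CPM in replicates 3 and 4 of 14 weeks. Replicate 4 of 5 weeks was thus below replicate 5 in plain CPM and above it with TMM scaling.

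**Figure D1:**
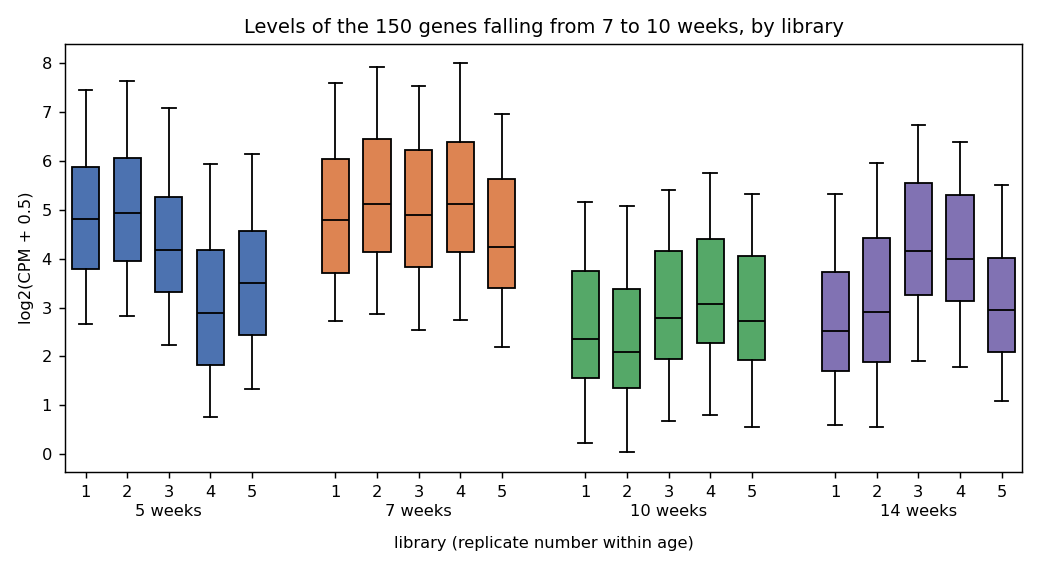
Levels of the 150 falling genes in each of the 20 libraries as log2(CPM + 0.5), with ages from young to old. The line is the median, the box the quartiles and the whiskers the 5% and 95% points over genes. Replicates 4 and 5 of 5 weeks sit low, and replicates 3 and 4 of 14 weeks sit high within their age.

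The selected fall was large. The ratio of the 10 weeks to the 7 weeks mean had a median of −2.11 on the log2(CPM + 0.5) scale and ran from −4.44 to −1.15. On that scale the mean at 10 weeks was at least 4-fold lower than at 7 weeks in 84 members and at least 8-fold lower in 12. All 150 were among the IDs called lower at 10 than at 7 weeks in edgeR's quasi-likelihood test at an adjusted p under 0.05, a call made for 12.6% of the 19192 tested IDs. Every 10 weeks library was below every 7 weeks library in 11.7% of the tested IDs. These values describe the choice of members and test nothing. With TMM-scaled CPM the libraries of both ages did not overlap in any of the 150 either. The smallest gap of a member, 0.809, was larger than any shift between libraries of these ages from TMM scaling. That outcome was thus fixed in advance and tests nothing.

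The age means followed 1 order in 141 of the 150 members, highest at 7 weeks, then 5, then 14 and lowest at 10 weeks. In 147 members the highest of the 4 means, on the log2 scale, was at 7 weeks, and in the other 3 it was at 5 weeks. The lowest mean was at 10 weeks in 146 members and at 14 weeks in 4. The rule fixed the order of 10 and 7 weeks, and it asked for 1 library of 5 weeks at the 7 weeks level.

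At 5 weeks the falling genes were high in 3 libraries and low in 2. Replicate 2 was at or above the lowest 7 weeks library in 146 members, replicate 1 in 132 and replicate 3 in 69, against 11 for replicate 4 and 8 for replicate 5. Replicate 4 was at or below the highest 10 weeks library in 104 members and replicate 5 in 62, while this held for 6 members in replicate 3 and for 0 in replicates 1 and 2. With TMM scaling 131, 147, 86, 20 and 13 members in replicates 1 to 5 were at or above the lowest 7 weeks library. The counts at or below the highest 10 weeks library were then 0, 0, 2, 72 and 45. The rule needed 1 such high library. In 62 members exactly replicates 1 and 2 met it, in 52 exactly replicates 1, 2 and 3, and in 15 replicate 2 alone. Only 2 members were at the 7 weeks level in all 5 libraries of 5 weeks.

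A position between both selected ages puts the libraries on a common scale. For each gene it is 0% at the mean of the 7 weeks libraries and 100% at the mean of the 10 weeks libraries, on log2(CPM + 0.5). The median position of the members was 5.88%, −0.0172%, 29.5%, 98.0% and 71.8% in replicates 1 to 5 of 5 weeks. With TMM scaling the value of replicate 4 was 79.1%, and the others were 6.76%, 0.228%, 22.1% and 72.6%. By this median, though not by the sum, replicate 4 was thus the lowest library of 5 weeks under both scalings, and the gap between replicates 4 and 5 was smaller with TMM scaling. No batch or family is named in the labels against which this split could be set.

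Between 7 and 5 weeks the members' fitted log2 fold change had a median of 0.62 and was positive in 142 of 150. None was called in edgeR at an adjusted p under 0.05, a call of higher at 7 weeks made for 0.391% of all tested IDs. An unadjusted p under 0.05 was found in 42 members, all higher at 7 weeks, against 9.25% of all tested IDs. DESeq2 called 10 higher at 7 weeks, against 2.84% of all tested IDs. Without replicates 4 and 5 of 5 weeks the median was 0.26 and 0 were called. The share over all tested IDs in that fit is not given here, so nothing is read from that 0. Without 5 weeks replicate 2 alone 5 were called higher at 7 weeks, against 0.428% of all tested IDs. Limma voom called 2, against 0.339%, and relative log expression factors gave 1, against 0.401%. Without the 4 libraries apart on the first component 3 were called, against 1.05%. Between 10 and 5 weeks the median was −1.59 and all 150 fitted values were negative. Of the 150, 121 were called lower at 10 weeks in edgeR, against 4.23% of all tested IDs, and in 44 every 10 weeks library was below every 5 weeks library, against 2.09%. That count of 121 was 28, 22 and 48 without 5 weeks replicates 1, 2 and 3, against 0.402%, 0.248% and 0.84% of all tested IDs. It was 54, 42 and 65 without 10 weeks replicates 2, 3 and 5, against 1.35%, 0.712% and 1.88%. The share over all IDs thus fell with the count of members. Both comparisons share libraries with the choice of members, so nothing is read from these counts.

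At 14 weeks, an age that entered the rule only through the mean over all libraries, the members were again high in some libraries and low in others. Their median position was 105%, 94.5%, 34.4%, 39.1% and 88.0% in replicates 1 to 5, and with TMM scaling 102%, 88.1%, 49.8%, 56.3% and 90.5%. Replicate 3 was at or above the lowest 7 weeks library in 61 members and replicate 4 in 49, against 0, 8 and 1 in replicates 1, 2 and 5. Replicates 1, 2 and 5 were at or below the highest 10 weeks library in 142, 102 and 118 members, and replicates 3 and 4 in 10 and 14. With TMM scaling 0, 17, 43, 25 and 1 members in replicates 1 to 5 were at or above the lowest 7 weeks library, and 125, 91, 24, 33 and 113 were at or below the highest 10 weeks library. Replicates 3 and 4 are among the libraries apart on the first component of the other genes. The other pair of libraries apart on it belongs to 10 and 7 weeks. On the next component replicates 1 to 5 of 14 weeks scored 38.5, 20.8, −48.8, −3.07 and 72.2. There the 10 weeks libraries lay at 20.9 to 58.8 and the 7 weeks libraries at −62.2 to −34.7. The part of either component in the members' levels was not tested.

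**Figure D2:**
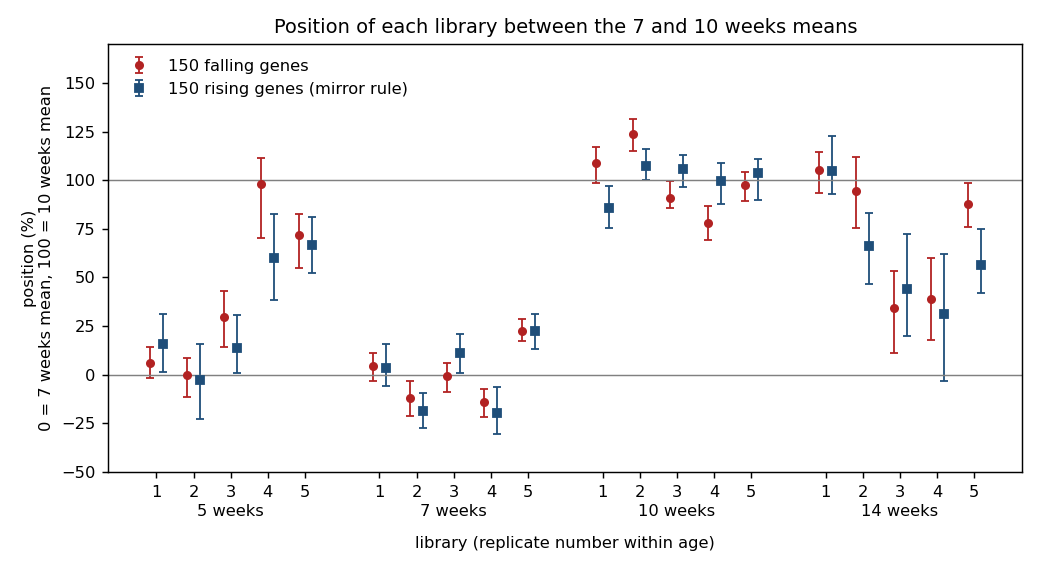
Median position of each library between the 7 weeks mean (0%) and the 10 weeks mean (100%), for the 150 falling genes (circles) and for the 150 genes chosen by the mirror rule, which rise from 7 to 10 weeks (squares). Bars are the quartiles over genes. Both sets place 5 weeks replicates 4 and 5 toward 100% and 14 weeks replicates 3 and 4 below 50% in plain CPM, as plotted.

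The comparison of 14 with 5 weeks has no library of 10 or 7 weeks on either side, although all 20 libraries share the estimate of spread. The members' fitted log2 fold change had a median of −0.90, with quartiles of −1.22 and −0.58, and was negative in 147 of 150, while the median over all tested IDs was 0.07 and 43.8% were negative. No member passed an adjusted p of 0.05 in edgeR, where 0.0104% of all tested IDs were called lower and 0% higher, and the smallest adjusted p of a member was 0.0618. At an unadjusted p under 0.05, 100 members were lower at 14 weeks and 0 higher, against 7.89% and 15.6% of all tested IDs. In 5 members every 14 weeks library was below every 5 weeks library, against 0.36% of the tested IDs. The condition that 1 library of 5 weeks reach the 7 weeks level raised the 5 weeks side, so the direction is in part fixed by the choice of members.

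The count of 0 differed between tools and on leaving out libraries. DESeq2 called 66 members lower at 14 than at 5 weeks at an adjusted p under 0.05, against 2.84% of all tested IDs. Limma voom called 0, and its share over all tested IDs is not given here. In edgeR without replicates 4 and 5 of 5 weeks 89 members were called lower, against 4.07% of all tested IDs. Without 5 weeks replicate 4 or 5 alone the counts were 19 and 13, against 0.402% and 0.191%. Replicates 4 and 5 met the 5 weeks condition of the rule in only 11 and 8 members. The 5 weeks libraries left are thus those that mostly met this condition. Without replicates 4 and 5 the share over all tested IDs rose as well, from 0.0104% to 4.07%. The cause of the rise was not tested, and nothing is read from these counts. Without 14 weeks replicate 1, 2 or 5 they were 22, 41 and 21, against 1.34%, 2.82% and 0.934%. Without the 4 libraries apart on the first component the count was 0 and the median log2 fold change −1.35. The share over all tested IDs in that fit is not given here, so nothing is read from that 0.

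Set against the selected ages, the median position at 14 weeks was nearer to 10 than to 7 weeks in 3 of the 5 libraries in plain CPM. With TMM scaling replicate 4 was also nearer to 10 weeks, at 56.3%, and replicate 3 stood midway, at 49.8%. In 84 members every 14 weeks library was below every 7 weeks library, against 5.28% of all tested IDs, and 115 were called lower at 14 than at 7 weeks in edgeR, against 8.16%. Without the 4 libraries apart on the first component 142 of the 150 were below in every 14 weeks library, against 17.6% of the tested IDs, and 140 were called, against 10.6%. In 1 member the 14 weeks libraries all lay above the highest 10 weeks library, against 0.318% of the tested IDs. Between 14 and 10 weeks the median fitted log2 fold change was 0.64 and 145 members had a positive value. None was called in edgeR, where 0% of all IDs was called higher, and DESeq2 called 5 higher at 14 weeks, against 1.11% of all tested IDs. Without 14 weeks replicate 1 edgeR called 8 higher at 14 weeks, against 1.66% of all tested IDs. Without the 4 libraries apart on the first component the median was 0.22, with negative values in 33 members, and 0 were called. The share of all tested IDs called in that fit is not given here. In edgeR with all libraries 58 had an unadjusted p under 0.05 with a higher level at 14 weeks, against 15% of all tested IDs. The 7 weeks side was chosen high and the 10 weeks side low, which by itself pulls both contrasts in the directions seen.

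The members also differed among themselves in 14 weeks replicates 3 and 4. In 48 members at least 2 libraries of 14 weeks reached the 7 weeks level, and in 47 of these both replicates 3 and 4 did. In 18 members 1 library did, and in 84 none did. These classes depend on the scaling, and plain CPM was above TMM-scaled CPM in both libraries. With TMM scaling at least 2 libraries of 14 weeks reached the 7 weeks level in 25 members, all of them among the 48, and in 23 of these both replicates 3 and 4 did. The 48 had median positions of −3.17% in replicate 3 and 9.51% in replicate 4. The 84 had 50.6% and 57.1%. With TMM scaling the same 48 stood at 6.90% and 23.6%, and the same 84 at 65.1% and 75.2%, so the distance between them remained. In 14 weeks replicates 1, 2 and 5 the 48 stood at 107%, 95.9% and 80.9% and the 84 at 103%, 96.4% and 93.0%. At 5 weeks the medians of both classes in replicate 4 were 101% in the 48 and 99.5% in the 84. Of the 5 weeks libraries they lay farthest apart in replicate 5, at 64.2% in the 48 and 74.6% in the 84.

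The classes had a median gap of 0.95 in the 48 and 0.975 in the 84, and median lengths of 2839 bases in the 48 and 3027 bases in the 84. Their mean level had a median of 12.7 CPM in the 48 and 18.4 CPM in the 84. Across the 150 members, positions in replicates 3 and 4 of 14 weeks had a Pearson's r of 0.92, or 0.91 with TMM scaling, while positions in 14 weeks replicate 3 had an r of −0.11 with 5 weeks replicate 3 and of 0.09 with 5 weeks replicate 4. These r values are across genes, which are not independent replicates, and the positions share the same 10 and 7 weeks means. The classes were made from the 14 weeks values themselves, so their distance in replicates 3 and 4 is a description.

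**Figure D3:**
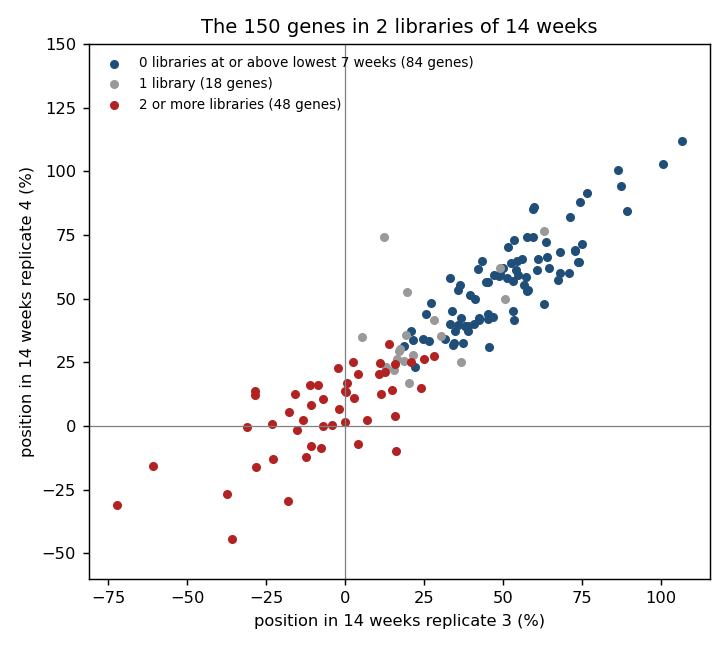
Position of each of the 150 genes in 14 weeks replicate 3 (horizontal axis) and replicate 4 (vertical axis), where 0% is the 7 weeks mean and 100% the 10 weeks mean. Colours give the number of 14 weeks libraries at or above the lowest 7 weeks library. The 48 genes with 2 or more such libraries lie around 0% in both, and the 84 with none around 50.6% and 57.1%. Values are in plain CPM, in which 48 genes had 2 or more such libraries, against 25 with TMM scaling.

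**Figure D4:**
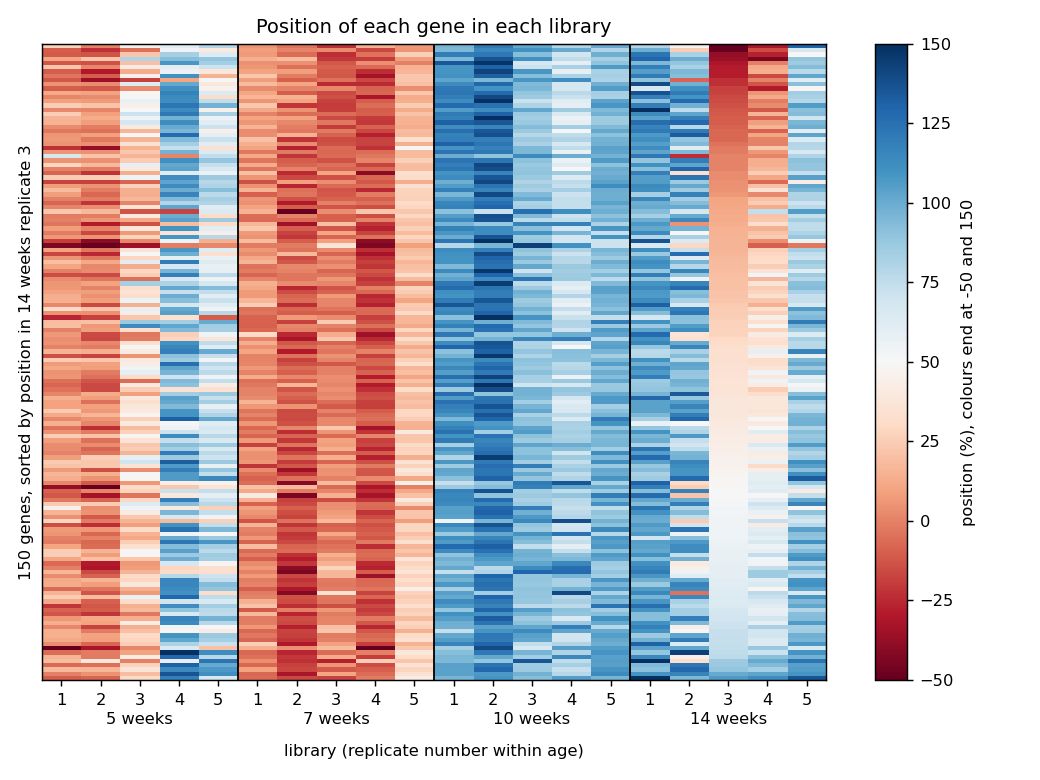
Position of each of the 150 genes (lines) in each of the 20 libraries (columns, young to old), with red near the 7 weeks mean and blue near the 10 weeks mean. Genes are sorted by their position in 14 weeks replicate 3, in plain CPM. The gradient from top to bottom is repeated in 14 weeks replicate 4 (r = 0.92 over genes). It is not repeated in 5 weeks replicate 3 or 4 (r = −0.11 and 0.09). For the other libraries no r with 14 weeks replicate 3 was computed.

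Within an age the members varied together. Over the 10 libraries of 5 and 14 weeks, centred within each age, the median Pearson's r between 2 members was 0.84 over 11175 pairs, and 99.5% of the pairs were above 0. Over all tested IDs in the same range of mean CPM the median was 0.18 and 61.1% of the pairs were above 0. At 5 weeks alone the median between members was 0.94, and at 14 weeks alone it was 0.83, each over 5 libraries. Over all IDs in the same range of mean CPM the medians were 0.25 and 0.19. At 5 weeks the rule asked for a library at the 7 weeks level, which replicate 2 met in 146 members and replicate 1 in 132, so their common profile at 5 weeks is in part the choice of members. Across all ages, a single component held 87.2% of the variance of the members over the 20 libraries, and the next held 5.12%. The rule chose a fall from 7 to 10 weeks in every member, so nothing is read from this share. Each member was also set against the median of the other 149, over the same 10 libraries. The r ranged from 0.184 to 0.992 with a median of 0.92, was at least 0.9 in 93 members and was under 0.5 in 6. All members share the depth of a library and the choice by 10, 7 and 5 weeks. With TMM scaling the median r between members was 0.74. In plain CPM it was 0.81 without 5 weeks replicates 4 and 5, and 0.84 without 14 weeks replicates 3 and 4. Over the 6 libraries left without both pairs it was 0.54 in plain CPM. The medians over all IDs in these settings are not given here.

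The mirror rule, which takes IDs with every 10 weeks library above every 7 weeks library and at least 1 library of 5 weeks at or below the highest 7 weeks value, left 1044 IDs, against 1905 for the falling rule. Its 150 largest gaps had a median of 0.843, against 0.978 in the falling set. At 5 weeks the mirror genes stood at 15.8%, −2.6%, 13.9%, 59.8% and 66.8% in replicates 1 to 5, and at 14 weeks at 105%, 66.1%, 44.2%, 31.3% and 56.6%. In both sets replicates 4 and 5 lay nearest to the 10 weeks mean at 5 weeks, and replicates 3 and 4 nearest to the 7 weeks mean at 14 weeks. In plain CPM the falling genes had a higher median position than the mirror genes in 5 weeks replicates 2 to 5 and in 14 weeks replicates 1, 2, 4 and 5, and a lower one in 5 weeks replicate 1 and 14 weeks replicate 3. With TMM scaling the mirror genes stood at 14.4%, −2.57%, 21.47%, 80.7% and 66.1% at 5 weeks and at 108%, 74.5%, 26.5%, 13.7% and 54.2% at 14 weeks. In 5 weeks replicate 4 both sets were then close, at 79.1% for the falling and 80.7% for the mirror genes. In 14 weeks replicate 3 the falling genes then had the higher position. In 14 weeks replicate 1 they then had the lower one, at 102% against 108%. Between mirror genes the median r over the same 10 libraries was 0.66, against 0.84 for the falling genes. The difference between both sets was not tested.

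The 257 falling IDs that failed only the 5 weeks condition had a median gap of 0.244, and 17 of them had a gap as large as the last member or larger. Their median position at 5 weeks was 47.6%, 46.4%, 88.4%, 124% and 90.1%, which the condition they failed keeps away from 0%. At 14 weeks, which the condition did not use, they stood at 106%, 123%, 28.4%, 39.3% and 103%, with replicates 3 and 4 nearest to the 7 weeks mean as in the 150 members. With TMM scaling they stood at 55.3%, 54.4%, 77.0%, 83.1% and 96.1% at 5 weeks and at 99.0%, 109%, 59.48%, 81.5% and 114% at 14 weeks.

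Nfu_g_1_016257 had the largest gap of the rule. Its CPM was 142, 226, 107, 41.5 and 35.2 in replicates 1 to 5 of 5 weeks and 108, 235, 98.4, 234 and 77.5 at 7 weeks. It was 4.38, 3.78, 4.13, 6.38 and 13.6 CPM at 10 weeks and 3.61, 28.2, 83.5, 68.9 and 10.7 CPM at 14 weeks. Every library of 5 weeks was above every library of 10 weeks, and the 14 weeks libraries spanned the whole range between 10 and 7 weeks. The age means were 110 ± 78.6 CPM at 5 weeks, 151 ± 77.6 at 7 weeks, 6.46 ± 4.12 at 10 weeks and 39.0 ± 35.496 at 14 weeks (SD, n = 5 each). The log2 fold change of 14 against 5 weeks was −1.76 (SE 0.65; adjusted p = 0.109, edgeR), and DESeq2 gave −1.75 (adjusted p = 0.0366). That of 14 against 10 weeks was 2.32 (SE 0.66; adjusted p = 0.202, edgeR). Its adjusted p was 0.0344 in DESeq2 and 0.0379 in edgeR without 14 weeks replicate 1, the lowest 14 weeks library of this ID. The rule chose the 10 weeks side low and raised the 5 weeks side, so nothing is read from these p-values.

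Nfu_g_1_006417 had the next largest gap. At 5 weeks it stood at 24.4, 27.2, 13.2, 1.91 and 5.68 CPM and at 7 weeks at 61.0, 60.2, 58.2, 47.4 and 26.5 CPM in replicates 1 to 5. At 10 weeks it stood at 2.13, 1.3, 3.86, 5.04 and 3.55 CPM and at 14 weeks at 3.34, 2.31, 15.3, 15.4 and 4.17 CPM. Only replicate 2 of 5 weeks reached the 7 weeks range, by a small margin over its lowest library, and no library of 14 weeks did. Its means were 14.5 ± 11.1, 50.6 ± 14.6, 3.18 ± 1.48 and 8.11 ± 6.65 CPM at 5, 7, 10 and 14 weeks (SD, n = 5 each). The log2 fold change of 14 against 5 weeks was −1.07 (SE 0.53; adjusted p = 0.234, edgeR). Without 5 weeks replicates 4 and 5 it was −1.64 (adjusted p = 0.0392, edgeR). Those were the lowest 5 weeks libraries of this ID, which met the rule through replicate 2 of 5 weeks, so nothing is read from the latter p-value. The 2 IDs differed in length, with 3372 bases for Nfu_g_1_016257 and 327 bases for Nfu_g_1_006417. As CPM per kilobase, Nfu_g_1_006417 was the higher of the 2 at 7 weeks, at 155 ± 44.5, against 44.7 ± 23.0 for Nfu_g_1_016257 (SD, n = 5 each).

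Nfu_g_1_017227 had the largest fitted rise from 10 to 14 weeks outside these 2. It stood at 18.499, 19.2, 10.4, 3.38 and 4.99 CPM at 5 weeks and at 13.4, 16.9, 23.0, 16.4 and 9.72 CPM at 7 weeks, in replicates 1 to 5. At 10 weeks it stood at 1.61, 1.54, 2.84, 4.49 and 2.5 CPM and at 14 weeks at 1.48, 3.46, 29.2, 24.3 and 6.35 CPM. Replicates 3 and 4 of 14 weeks were above every 7 weeks library, while replicate 1 was below every 10 weeks library. The log2 fold change of 14 against 10 weeks was 2.08 (SE 0.57; adjusted p = 0.202, edgeR), and that of 14 against 5 weeks was −0.09 (SE 0.54; adjusted p = 0.941, edgeR). For 14 against 10 weeks the adjusted p was 0.0341 in DESeq2 and, without 14 weeks replicate 1, 0.0328 in edgeR. Replicate 1 was the lowest 14 weeks library of this ID. The ID was named for this rise and the rule chose its 10 weeks side low, so nothing is read from its p-values for 14 against 10 weeks.

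Nfu_g_1_014488 followed with a log2 fold change of 1.99 for 14 against 10 weeks (SE 0.81; adjusted p = 0.217, edgeR). Its levels were 24.9, 25.54, 15.2, 1.28 and 2.68 CPM at 5 weeks and 30.9, 37.4, 40.5, 27.9 and 14.5 CPM at 7 weeks. They were 0.824, 0.84, 2.5, 6.57 and 1.53 CPM at 10 weeks and 2.57, 0.969, 28.5, 20.0 and 2.46 CPM at 14 weeks. Replicates 3 and 4 of 14 weeks were within the 7 weeks range, and the other 3 were within the 10 weeks range. The same split was present at 5 weeks, with replicates 1, 2 and 3 at the 7 weeks level and replicates 4 and 5 at the 10 weeks level.

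**Figure D5:**
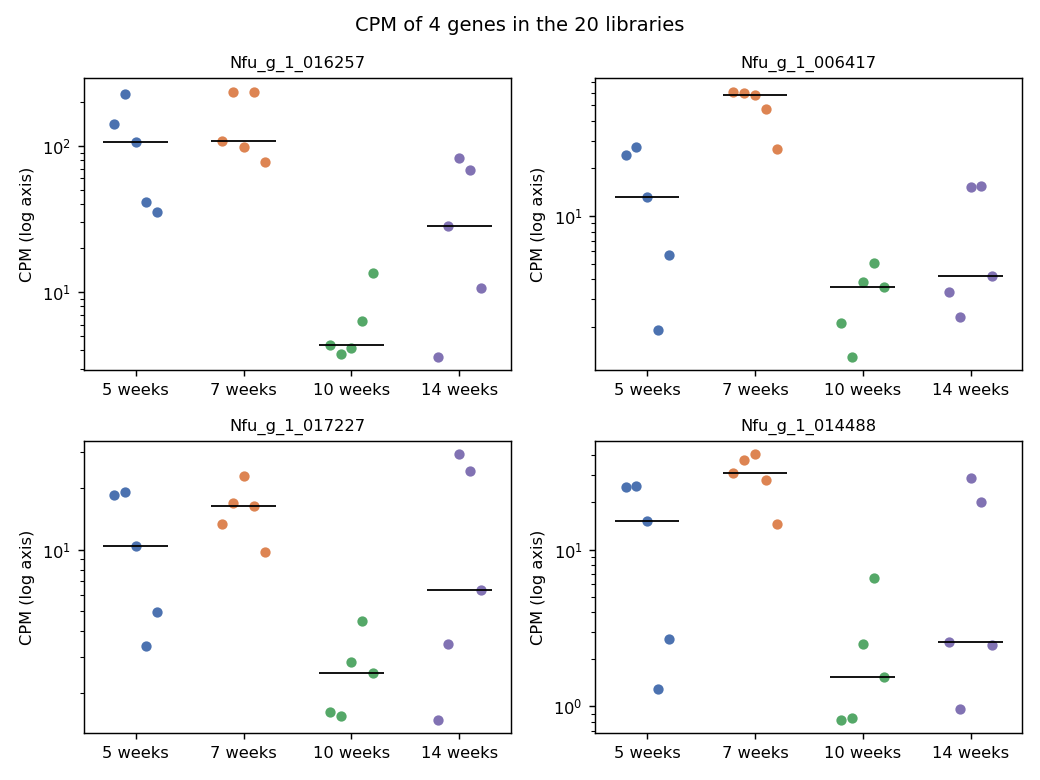
CPM of 4 falling genes in the 20 libraries, on a log axis, with ages from young to old. Each point is 1 library and the line is the median of the 5 libraries. In all 4 genes the highest 14 weeks libraries are replicates 3 and 4.

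Some members at the ends of the range were chosen after their values were seen. The member with the highest mean level stood at 516 ± 282 CPM at 5 weeks, 850 ± 608 at 7 weeks, 72.04 ± 39.0 at 10 weeks and 161 ± 117 at 14 weeks (SD, n = 5 each). It was at 330 CPM in 14 weeks replicate 2, above replicates 3 and 4 at 211 and 154 CPM. The member with the lowest mean level had 79 and 82 counts in 14 weeks replicates 4 and 3, and 5 to 10 counts in the other 3 libraries of that age. At 10 weeks it had 3 to 13 counts, against 32 to 58 at 7 weeks, so counting error adds to its spread. The member with the highest level per length, 864 bases long, stood at 80.0 ± 7.36 CPM at 10 weeks, against 194 ± 27.1 CPM at 7 weeks (SD, n = 5 each).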

How the data were processed

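Total RNA of skin was made into TruSeq (version 2) RNA-seq libraries, per the labels' protocols. The submitters' processing notes list featureCounts 1.4.6-p4, STAR 2.4.1d and CASAVA 1.8.2, without their settings. Build, gene models and strand setting were not given in the sources used here. Overlapping genes, antisense partners and close copies may therefore share reads. The deposited values are raw counts for each ID and, in a second table by the authors, RPKM. The RPKM of a library do not use its own depth. A series of 25 depths repeats down the table, 20 of which matched the library totals here. With these, 100% of 332233 values were recovered within 0.1% or the last decimal. Own totals with the same lengths gave 6.18%. The lengths came from the series itself, at the largest RPKM of each ID, which thus matches by construction. The 2 shares are therefore not an even comparison. RPKM served only to recover gene lengths.

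Libraries were grouped by labelled age, and replicate numbers follow accession order and pair no libraries. The members, comparisons and alternatives were chosen with earlier results of these data known. Counts were tested with edgeR 4.0.16 in R 4.3.3 (filterByExpr, TMM, glmQLFit and glmQLFTest on 4 age means over all 20 libraries, 16 residual degrees of freedom) with Benjamini-Hochberg adjustment over 19192 IDs, the 150 members among them. A standard error is the fold change over the square root of F. Alternatives were DESeq2 1.42.0, limma 3.58.1 voom, other scaling factors, no filter, only the 2 ages compared, and leaving out libraries. The fits were also run on simulated counts, drawn independently for each ID. Those counts held no libraries apart as in the real data. The outcome is not given here, and nothing is read from it. Totals of 21581757 to 35137022 counts a library limit precision most at low counts. With no symbols matched, the rule for named IDs gave 4, the 2 with the largest gap and the next 2 with the largest fitted rise from 10 to 14 weeks.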

Additional observations from a re-analysis of the deposited data

Results flagged for a closer look

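In Nfu_g_1_016257, 10 weeks replicate 5 stood far above the other 4 libraries of its age, at 13.6 CPM against 3.78 to 6.38 CPM, a gap of 0.735 of the whole range (Dixon's limit for 5 libraries is 0.71). It was the only 1 of 24 groups of 5 libraries so far apart. Chance gives about 1 in 20 groups, so this flag is near what chance alone gives, and nothing is read from it.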

How the results depend on the processing

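The 150 members were called lower at 10 than at 7 weeks under every alternative run. With all libraries this call was made for 12.6% of all tested IDs in edgeR. The rule chose the members by this fall, so that count tests nothing. The 115 called lower at 14 than at 7 weeks, against 8.16% of all tested IDs, became 91 to 131 on leaving out 1 library. The shares over all tested IDs at the ends of that range are not given here. Such shares also moved between settings, so the ranges of counts in this section are not read as changes in the members alone. Members called between 14 and 5 weeks numbered 0 in edgeR, 66 in DESeq2 (2.84% of all tested IDs called lower) and 0 to 41 (2.82% at 41) on leaving out 1 library. Without 5 weeks replicates 4 and 5, which met the 5 weeks condition in few members, they numbered 89 (4.07%), a rise whose cause was not tested. Between 14 and 10 weeks they numbered 0, 5 in DESeq2 (1.11% of all tested IDs were called higher) and 0 to 8 (1.66% at 8) on leaving out 1 library. Between 7 and 5 weeks they numbered 0, 10 in DESeq2 (2.84% of all called higher), 2 in limma voom (0.339%) and 1 with relative log expression factors (0.401%). They numbered 3 without the 4 libraries apart on the first component (1.05%) and 0 to 5 (0.428% at 5) on leaving out 1 library. Between 10 and 5 weeks the 121, against 4.23% of all tested IDs, became 22 (0.248%) to 139 on leaving out 1 library. The share at 139 is not given here. The rule kept 77 to 150 members on leaving out 1 library. Without the 4 libraries apart, 142 in place of 84 members were under every 7 weeks library at 14 weeks. The shares of all tested IDs were 17.6% and 5.28%. The alternatives for the next 14 weeks count and for the median r were chosen after seeing the data. With TMM scaling 25 in place of 48 members had 2 or more 14 weeks libraries at the 7 weeks level. The median r between members, 0.84 with all 10 libraries, was 0.736 with TMM scaling. In plain CPM it was 0.537 without 5 weeks replicates 4 and 5 and 14 weeks replicates 3 and 4. Mean positions at 5 and 14 weeks, 41.0% and 72.3%, ran from 26.8% to 51.3% and from 64.0% to 81.8% on leaving out 1 library. For Nfu_g_1_017227 the log2 fold change of 14 against 5 weeks, −0.09, was 0.06 and 0.08 without 5 weeks replicates 1 and 2, and 0.18 and 0.12 without 14 weeks replicates 1 and 2, with a range of −0.60 to 0.18 on leaving out 1 library. Of 324 settings for the 4 named IDs, 314 kept direction and call, 6 gained a call and these 4 changed sign. The cause of these changes was not tested. No paired analysis was possible because the labels pair no libraries and replicates were numbered in accession order. Under every 7 weeks library at 14 weeks were 84 to 106 members on leaving out 1 library. The share over all tested IDs in these settings is not given here. Depth limits the members of lowest level, with as few as 3 counts in a library.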

Other observations

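The 17 IDs with a gap as large as that of the last member or larger, but no 5 weeks library at the 7 weeks level, stood at 102%, 107%, 33.9%, 31.8% and 91.7% in replicates 1 to 5 of 14 weeks, in plain CPM on the scale from the 7 weeks mean (0%) to the 10 weeks mean (100%). At 5 weeks they stood at 33.3%, 31.1%, 52.4%, 88.8% and 69.6%. In plain CPM, replicates 4 and 5 of 5 weeks were thus nearest to the 10 weeks mean in these 17 IDs too, which the condition they failed did not ask for. In all 257 IDs that failed only this condition, replicates 3, 4 and 5 of 5 weeks stood at 88.4%, 124% and 90.1% in plain CPM. With TMM scaling those 257 stood at 77.0%, 83.1% and 96.1% there.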
